A study of Mus musculus with 4 samples.

Results

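Tnfsf11, Csf1, Tnfrsf11b, Tnfrsf11a and Csf1r, genes of the ligand and receptor pairs that control osteoclast formation, are described here across the cells of mouse long-bone epiphyses. They are 5 of the 31053 features in the deposited matrices. Their rows were taken by gene symbol alone. Tnfsf11 encodes RANKL, the ligand that drives osteoclast differentiation through its receptor RANK, the product of Tnfrsf11a. Tnfrsf11b encodes osteoprotegerin, a secreted decoy receptor that binds RANKL and keeps it from RANK. Csf1 encodes macrophage colony-stimulating factor, which keeps macrophages and osteoclast precursors alive and dividing through its receptor, the product of Csf1r. In growing bone, hypertrophic chondrocytes, osteoblasts, osteocytes and marrow stromal cells are known sources of RANKL, and osteoclasts are large multinucleated cells of the macrophage lineage.

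Cells were freed from tibial and femur epiphyses with the enzyme blend Liberase and sequenced one by one on the Chromium platform (v3), per the labels' protocols. The 4 libraries came from Sox9fl:fl AcanCreERT2/+ mice at postnatal days 13 and 19 and from wild-type (WT) mice at the same ages, with 1 library per genotype and age. Sox9 is the transcription factor that maintains chondrocyte identity, and in the mutant both Sox9 alleles are floxed and CreERT2, a Cre recombinase active only with tamoxifen, is driven by the Acan locus, whose main site of expression is cartilage. The sources used here give neither the tamoxifen schedule and floxed exons nor the number of animals in a library, or whether the WT mice carried floxed or Cre alleles. The text of the series names another age and a further genotype, and the labels of the samples were followed. Because each group is 1 library, a genotype difference could be tested only across the 2 ages, with 1 residual degree of freedom, and its p-values measure the spread between these libraries.

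The depth was 75724167 and 76080803 unique molecular identifiers (UMIs, counted transcripts) in the mutant libraries of days 13 and 19, against 74011576 and 70507107 UMIs in the WT libraries. A barcode was kept at 500 detected genes or above and a mitochondrial share of up to 15%. Removal of doublets then left 7300 and 9685 mutant cells and 6236 and 7115 WT cells, with median depths of 8944, 5347, 9646 and 5440 UMIs in that order. Between 10 and 35 barcodes were shared by a pair of libraries. The cells formed 26 clusters, named "-like" by markers, with the 5 genes left out of the genes used to cluster. Levels are UMIs of the gene per 1000000 summed UMIs (CPM) of a class in 1 library. Every interval is an exact 95% interval that covers counting error only, since the UMIs and cells of 1 library are not independent samples of animals. A class total cannot tell fewer expressing cells from less RNA per cell. Sox9 itself stood at 198 and 175 CPM in mutant chondrocyte-like cells, against 359 and 459 CPM in WT chondrocyte-like cells, at days 13 and 19. Whether the counted end of the Sox9 transcript lies in the deleted part was not known.

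The chondrocyte-like class joined 8 clusters with 2959 and 2911 mutant cells and 4304 and 1042 WT cells at days 13 and 19. Its markers were at lower levels in the mutant: 27 chondrocyte genes summed to 46684 and 54866 CPM in mutant cells and to 117425 and 110804 CPM in WT cells. Different clusters filled the class in the 2 genotypes. Cluster 4, led by Myoc and Pi15, held 37.4% and 35.9% of the mutant class and 0.302% and 1.25% of the WT class. Cluster 14, led by Cryba2 and by Mmp13, the collagenase of late hypertrophic cartilage, held 31.0% and 27.4% of the mutant class and 0.395% and 0.864% of the WT class. Most WT cells lay in clusters 3 (led by Frzb and Matn1), 9 (Pcp4 and Ucma) and 8 (Ppa1, Il17b and Panx3).

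The 2 ligand genes moved together in the chondrocyte-like class, so the 250 bases upstream of their annotated starts are printed here from RefSeq promoter tables for GRCm38.p6, 5′ to 3′ along the gene's strand. Tnfsf11 (ENSMUSG00000022015) lies on the minus strand of chromosome 14 at 78277445 to 78308043, and Csf1 (ENSMUSG00000014599) on the minus strand of chromosome 3 at 107741048 to 107760469 (GENCODE M21, GRCm38). The windows are chr14:78308044-78308293 and chr3:107760470-107760719. Capitals mark the matches to any of 6 motifs searched on both strands.
Tnfsf11: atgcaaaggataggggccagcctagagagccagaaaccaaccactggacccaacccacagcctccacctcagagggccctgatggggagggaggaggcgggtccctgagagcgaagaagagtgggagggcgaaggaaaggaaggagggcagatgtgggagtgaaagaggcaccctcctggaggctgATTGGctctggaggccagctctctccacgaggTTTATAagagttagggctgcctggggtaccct
Csf1: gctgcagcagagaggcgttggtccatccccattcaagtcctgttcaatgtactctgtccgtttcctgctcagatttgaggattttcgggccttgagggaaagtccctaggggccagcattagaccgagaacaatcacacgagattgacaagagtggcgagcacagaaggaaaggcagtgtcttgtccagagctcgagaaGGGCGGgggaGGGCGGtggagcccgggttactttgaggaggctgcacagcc
The Tnfsf11 window held TTTATA, which is TATAAA on the other strand, starting 32 bases before the start, and ATTGG, which is CCAAT on the other strand, 64 bases before it. TATAAA was found in 12.4% and CCAAT in 33.8% of 32851 promoter windows of the same length. The Csf1 window held GGGCGG, a GC box, 51 and 41 bases before the start, and 32.7% of all windows hold that motif. Neither window held the AP-1 motif TGANTCA, found in 6.75% of all windows. Nor did they hold the RUNX motif TGTGGT, found in 14.05%, or the SOX core motif ACAAAG, found in 16.5%. The 2 windows shared none of the 6 motifs. Their base composition was 60.4% GC for Tnfsf11 and 56.4% GC for Csf1, against a median of 52.4% GC over all windows.

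Tnfsf11 was rare, with 1080 UMIs over all cells, and most of them came from the mutant libraries. The mutant libraries held 486 and 473 Tnfsf11 UMIs at days 13 and 19, and the WT libraries 63 and 58. Over all kept cells this was 6.83 and 6.93 CPM in the mutant libraries, against 0.920 and 1.03 CPM in the WT libraries. The counting intervals of the genotypes lay far apart at both ages, and the log2 ratio of mutant to WT was 2.89 (2.51 to 3.30) at day 13 and 2.75 (2.35 to 3.17) at day 19. Fitted over both ages, the difference was 2.68 ± 0.363 on the log2 scale (SE; edgeR's quasi-likelihood test, Benjamini-Hochberg adjusted p = 0.00449). Csf1 rose beside it by 2.09 ± 0.275 (adjusted p = 0.00391 in the same edgeR fit), and Tnfrsf11b was at 0.43 with an adjusted p of 0.532. Thus 2 of the 5 genes passed in a comparison in which 4.05% of 17008 genes did. Both calls were lost when age was left out of the fit, with adjusted p-values of 0.260 for Tnfsf11 and 0.341 for Csf1.

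**Figure D1:**
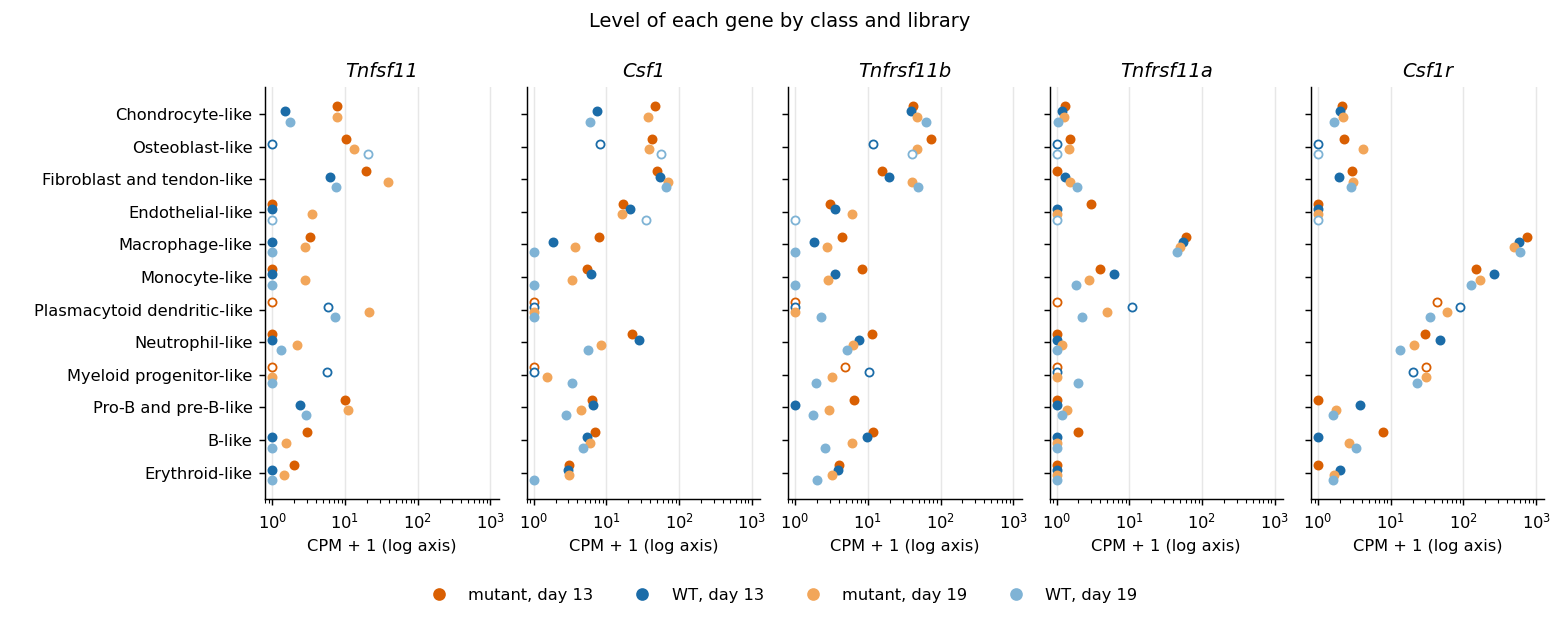
Level as CPM + 1 on a log axis of the 5 genes in each cell class, 1 point per library, with each mutant library above the WT library of the same age; open points mark classes with under 50 cells. Tnfrsf11b is highest in the osteoblast-like, chondrocyte-like and fibroblast-like rows, as is Csf1 in the mutant libraries. In WT, Csf1 is lower in the chondrocyte-like row than in the endothelial-like row. Tnfrsf11a and Csf1r are highest in the macrophage-like row.

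In chondrocyte-like cells Tnfsf11 stood at 6.81 and 6.84 CPM in the mutant (242 and 212 UMIs), against 0.485 and 0.769 CPM in WT (28 and 15 UMIs), at days 13 and 19. Both mutant values lay above both WT values with no overlap of intervals, a 14.03-fold difference at day 13 and an 8.90-fold difference at day 19. The fit over both ages gave a log2 difference of 3.33 ± 0.291 (SE; edgeR's quasi-likelihood test, Benjamini-Hochberg adjusted p = 0.000134). Csf1 was called as well, and Tnfrsf11b and Csf1r were not, so 2 of the 4 members that passed the filter on low counts changed, where 23.3% of 15077 genes were called and 12.6% were called higher in the mutant. Tnfrsf11a had too few counts in these cells to be tested.

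In the mutant, most of the chondrocyte-like Tnfsf11 came from cluster 14, which held 41.6% and 33.8% of all Tnfsf11 UMIs of the mutant libraries and 4.76% and 5.17% of those of the WT libraries. Within the cluster the level was 18.3 and 19.7 CPM in mutant cells (202 and 160 UMIs), against 28.5 and 24.6 CPM in WT cells, where it rested on 3 UMIs at each age in 17 and 9 cells. The intervals overlapped, so no difference within cluster 14 was detectable at this depth. The number of cells in the cluster was 916 and 797 in the mutant, against 17 and 9 in WT. A part of cluster 14 led by Mmp13, Ibsp and Bglap, genes of late hypertrophic cartilage and osteoblasts, carried 46.0 CPM over all libraries. A part of 134 cells led by haemoglobin genes carried 38.4 CPM, and the other 3 parts 4.33 to 6.40 CPM. In the part led by Mmp13 the mutant level was 41.2 and 53.6 CPM in 254 and 209 cells, while WT held 7 and 2 such cells with 3 and 0 UMIs.

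Outside cluster 14, Tnfsf11 was low in the chondrocyte-like cells of both genotypes. In the cycling cluster 1 it stood at 4.57 and 3.85 CPM in mutant cells (15 and 9 UMIs), against 0.214 and 0 CPM in WT cells (1 and 0 UMIs; a count of 0 allows up to 3 UMIs, here 0.809 CPM). In cluster 0, led by Prg4, the lubricin of the articular surface, it was 1.38 and 2.33 CPM in mutant cells and 0 at both ages in WT cells, which allows up to 1.15 and 1.38 CPM. Cluster 4 gave 1.32 and 1.89 CPM in the mutant. The Col10a1 and Ihh cluster 12, whose leading genes mark hypertrophic and prehypertrophic chondrocytes, went the other way at day 13, with 1.57 and 3.08 CPM in the mutant and 5.85 and 1.93 CPM in WT, and the intervals overlapped at both ages. Without clusters 4 and 14, a comparison added after these values were seen, Tnfsf11 still rose by 1.91 on the log2 scale (edgeR's quasi-likelihood test, Benjamini-Hochberg adjusted p = 0.0156), as did Csf1 by 1.91 (adjusted p = 0.000382), with 13.6% of genes called. The class moved in its markers of other cells too. The 13 osteoblast markers, all detected, summed to 14025 and 10488 CPM in mutant chondrocyte-like cells and to 5057 and 3398 CPM in WT ones, and their part in the Tnfsf11 difference was not tested. In erythroid-like cells, which should lack them, the same markers summed to 2987 and 1414 CPM in the mutant and to 652 and 101 CPM in WT. Tnfsf11 itself was at 1.01 and 0.450 CPM in mutant erythroid-like cells and at 0 in WT ones, which allows up to 2.95 and 0.298 CPM.

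Shares of cells told the same order as levels. Thinned to 2000 UMIs per cell, 1.13% and 1.55% of mutant chondrocyte-like cells held a Tnfsf11 UMI, against 0.119% and 0.194% of WT ones; 48 and 77 shallower mutant cells and 85 and 11 shallower WT cells were left out. The share in erythroid-like cells was 0 and 0.115% in the mutant and 0 and 0 in WT. Unthinned shares were 4.33% and 5.19% in mutant chondrocyte-like cells at median depths of 11033 and 9685 UMIs, against 0.534% and 1.25% in WT ones at 11856 and 16711 UMIs.

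Osteoblast-like cells (cluster 16, led by Ifitm5, Dmp1 and Bglap) were the next source of Tnfsf11 UMIs in the mutant, with 25.3% and 16.5% of them. The mutant held 919 and 529 such cells with 9.24 and 12.3 CPM, while WT held 22 and 17 with 0 and 19.9 CPM, from 0 and 5 UMIs, and the 0 allows up to 10.7 CPM. With so few WT cells no test was made, and the intervals overlapped at day 19.

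Fibroblast-like and tendon-like cells (cluster 20) had the highest mean Tnfsf11 level of the named classes, 17.2 CPM with an SD of 15.4 over the 4 libraries. Plasmacytoid dendritic-like and osteoblast-like cells followed at means of 13.4 and 10.8 CPM over the libraries with 50 cells or more, within that spread. The mutant libraries stood at 18.5 and 38.5 CPM (67 and 76 UMIs), against 5.26 and 6.42 CPM in the WT libraries (17 and 7 UMIs). Tnfsf11 rose here by 2.15 ± 0.343 on the log2 scale (SE; edgeR's quasi-likelihood test, Benjamini-Hochberg adjusted p = 0.0234), the 1 member called among the genes tested, of which 1.08% were called. The call was lost with another scaling (adjusted p = 0.0559), with DESeq2 (adjusted p = 0.2499) and with no age term (adjusted p = 0.153), in each case with a log2 difference above 2.

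That class was not uniform. A sub-cluster led by Mmp9, Mmp13 and Alpl held 101 of the Tnfsf11 UMIs, with 58.4 and 45.7 CPM in 138 and 83 mutant cells, against 33.8 and 28.8 CPM in 40 and 7 WT cells. The intervals of mutant and WT overlapped within it. A second sub-cluster of 14 cells, led by Adipoq, Lpl and other reticular stroma markers, held 50 Tnfsf11 UMIs, of which 49 came from 8 cells of the mutant day 19 library (554 CPM). Outside these 2 sub-clusters the class held 3 and 4 Tnfsf11 UMIs in the mutant (1.18 and 2.90 CPM) and 4 and 5 in WT (1.42 and 4.90 CPM), and the gene fell under the filter there. The sub-clusters were made after the class values were seen, and the fibroblast-like difference in Tnfsf11 rested on them.

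Pro-B-like and pre-B-like cells held 20 of the 58 Tnfsf11 UMIs of the WT day 19 library, more than any other class there. Their level was 8.87 and 9.87 CPM in the mutant (23 and 51 UMIs), against 1.38 and 1.95 CPM in WT (1 and 20 UMIs). Cluster 23, led by Vpreb1 and Dntt, genes of early B-cell precursors, had 13.1 and 18.4 CPM in the mutant, against 1.81 and 4.28 CPM in WT. In a comparison added after these values were seen, Tnfsf11 rose in the 2 pre-B clusters together by 2.28 ± 0.485 on the log2 scale (SE; edgeR's quasi-likelihood test, Benjamini-Hochberg adjusted p = 0.00875), the 1 member called where 2.39% of genes were. It missed the threshold in cluster 23 alone (adjusted p = 0.0540, 0.970% called), with DESeq2 (adjusted p = 0.9999) and with no age term (adjusted p = 0.161). The clusters fill the class unequally, since cluster 23 held 191 of 411 and 375 of 920 mutant cells and 67 of 101 and 462 of 1414 WT cells. Osteoblast markers in these cells summed to 2244 and 1036 CPM in the mutant and 516 and 274 CPM in WT, and their part in the result was not tested.

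Csf1 gave 5239 UMIs, and it passed the test between genotypes in chondrocyte-like cells and did not in fibroblast-like cells (log2 0.04, adjusted p = 0.986 in edgeR's quasi-likelihood test). Chondrocyte-like cells stood at 45.7 and 36.6 CPM in the mutant (1625 and 1135 UMIs), against 6.48 and 5.02 CPM in WT (374 and 98 UMIs). The log2 ratio was 2.82 (2.65 to 2.98) at day 13 and 2.87 (2.57 to 3.18) at day 19, and the fit gave 2.65 ± 0.148 (SE; edgeR's quasi-likelihood test, Benjamini-Hochberg adjusted p = 1.92e-05). The 11 macrophage markers summed to 303 and 237 CPM in mutant chondrocyte-like cells and to 47.4 and 51.2 CPM in WT ones. Macrophage-like cells held 6.85 and 2.68 CPM of Csf1 in the mutant and 0.841 and 0 CPM in WT, so each library's macrophage-like level lay below its chondrocyte-like level.

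**Figure D2:**
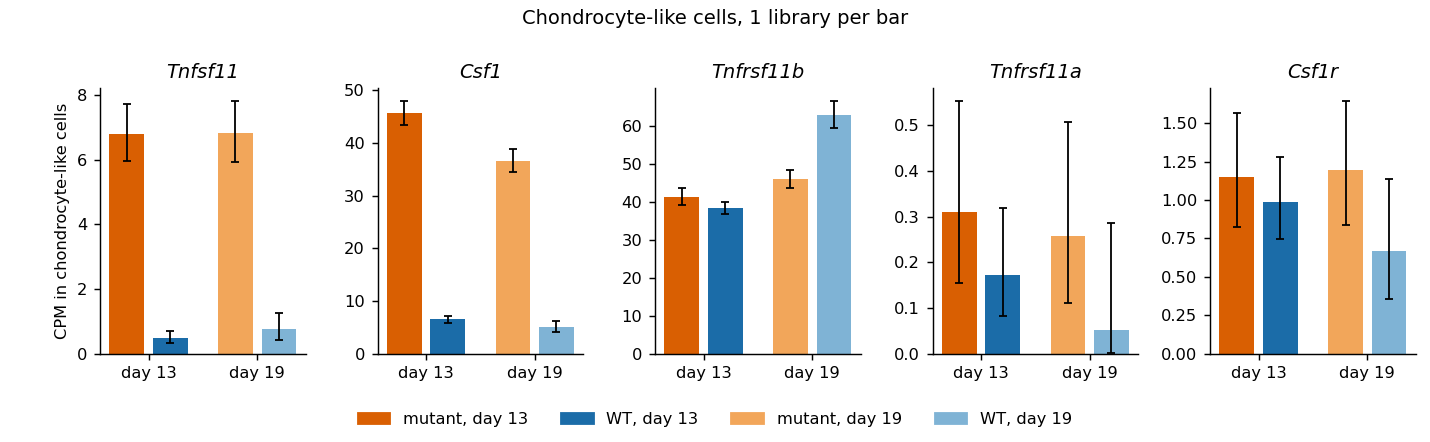
Level in CPM of the 5 genes in chondrocyte-like cells of each library, mutant left of WT at each age, with exact 95% counting intervals. Tnfsf11 and Csf1 are higher in both mutant libraries, while Tnfrsf11b is 41.3 and 45.9 CPM in the mutant and 38.3 and 62.9 CPM in WT.

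Csf1 was called higher in the mutant in chondrocyte-like clusters 1 and 3, which both genotypes filled, and in the unnamed cluster 13, by the tests given below. In the cycling cluster 1 it stood at 55.8 and 44.0 CPM in mutant cells, against 1.92 and 2.70 CPM in WT cells. In cluster 3 it was 22.5 and 26.0 CPM in the mutant and 11.1 and 10.9 CPM in WT. Cluster 13, led by Mepe and Chad, had 4 osteoblast markers and 1 chondrocyte marker among its 25 leading genes. It was left unnamed because 24 chondrocyte markers were also 3-fold over blood cells. Csf1 in cluster 13 was 24.0 and 21.2 CPM in the mutant and 5.09 and 0 CPM in WT, where the 0 allows up to 2.31 CPM. Tested one by one after these values were seen, edgeR's quasi-likelihood test with Benjamini-Hochberg adjustment called Csf1 in cluster 1 (log2 4.26 ± 0.308, 22.8% of genes called), cluster 3 (1.08 ± 0.240, adjusted p = 0.00883, 5.36% called) and cluster 13 (adjusted p = 0.00380, 6.10% called). It missed the threshold in cluster 0 (0.83, adjusted p = 0.118, 7.74% called) and in the Col10a1 and Ihh cluster 12 (0.81, adjusted p = 0.464, 2.91% called). For cluster 1 the spread was taken wholly from the trend across genes, so its p-values are smaller than those of the other clusters for the same counts.

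The largest Csf1 sources differed by genotype. In mutant libraries cluster 14 gave 33.8% and 29.3% of the Csf1 UMIs, against 0.489% and 0.758% in WT libraries, and its level was 81.1 and 61.8 CPM in mutant cells. The part of it led by Mmp13, Ibsp and Bglap reached 145 and 133 CPM in the mutant. In WT libraries fibroblast-like cells gave 27.9% and 26.9% of Csf1 UMIs and cluster 3 gave 36.0% and 11.4%. Fibroblast-like cells held the highest mean Csf1 level of any named class, 59.4 ± 10.1 CPM (SD, n = 4 libraries), and here the genotypes did not separate. Their values were 49.0 and 70.4 CPM in the mutant and 52.9 and 65.1 CPM in WT, with log2 ratios of -0.11 (-0.42 to 0.20) and 0.11 (-0.31 to 0.55). Osteoblast-like cells followed at a mean of 39.3 CPM over the 2 mutant libraries, then chondrocyte-like cells at 23.5 CPM with an SD of 20.8 over the 4 libraries, and endothelial-like cells at 15.8 and 15.2 CPM in the mutant and 20.2 and 34.5 CPM in WT, the last from 27 cells.

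Within the mutant class, cells with a Tnfsf11 UMI more often held a Csf1 UMI than other cells, though the first were slightly deeper. At day 13, 58.6% of 128 such mutant cells held Csf1, against 27.6% of the other chondrocyte-like cells, with median depths of 12430 and 10978 UMIs. At day 19 the shares were 43.0% of 151 and 22.8%, at 10054 and 9660 UMIs. In WT the shares were 8.70% of 23 cells against 7.71% at day 13, and 7.69% of 13 cells against 7.97% at day 19. Tnfrsf11b went the other way in this class, in 12.5% and 13.2% of mutant Tnfsf11 cells and in 23.8% and 24.2% of the other mutant cells. In mutant osteoblast-like cells it was in 42.4% and 26.0% of Tnfsf11 cells and in 32.2% and 22.1% of the others. In mutant fibroblast-like cells the shares were 7.89% and 4.55% against 7.42% and 7.46%. Within cluster 14 alone the Csf1 shares were 65.7% against 39.3% at day 13 and 46.2% against 31.0% at day 19. These are counts of cells of single libraries, and no test was made on them.

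**Figure D3:**
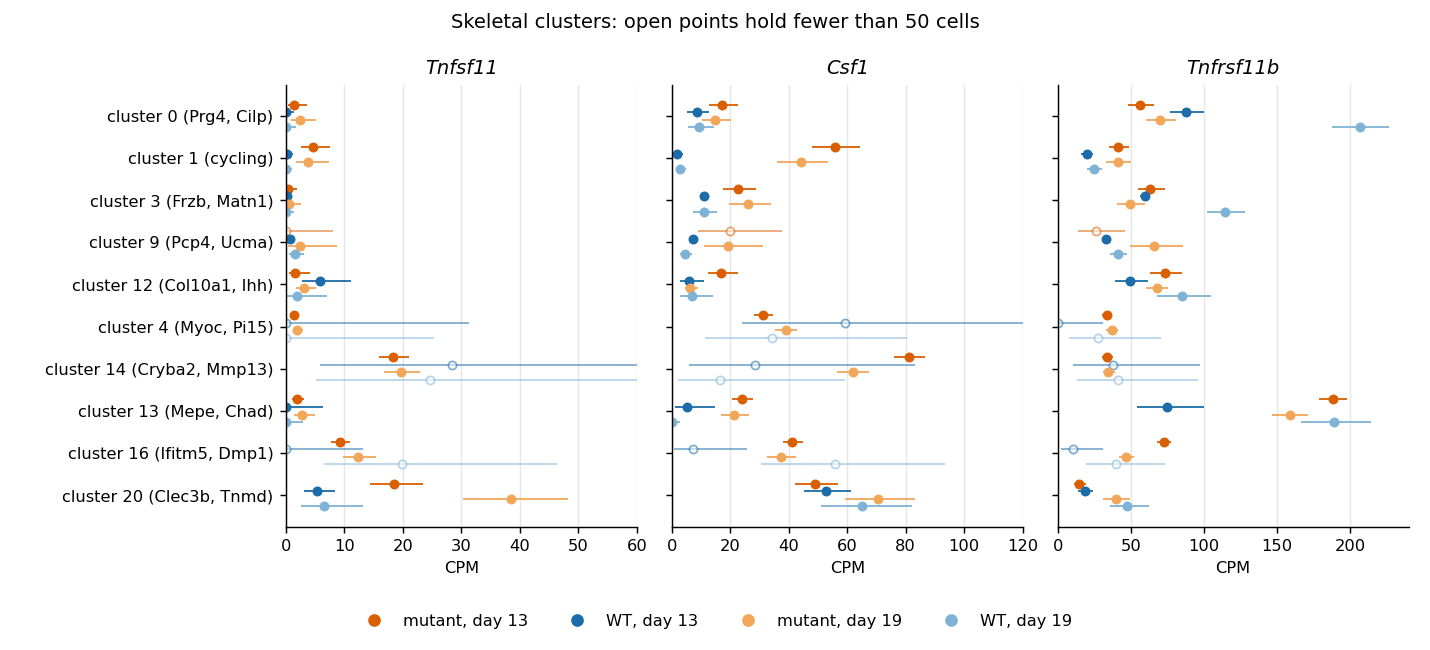
Level in CPM of Tnfsf11, Csf1 and Tnfrsf11b in the skeletal and fibroblast-like clusters except cluster 8, which is not drawn, mutant above WT at each age. Lines are exact 95% counting intervals, ended at the axis limit where they run past it, and open points mark clusters with under 50 cells. Tnfsf11 is concentrated in clusters 14, 16 and 20, and Tnfrsf11b is highest in cluster 13 in the mutant and in cluster 0 in WT.

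Tnfrsf11b, the decoy (ENSMUSG00000063727, chromosome 15 at 54250619 to 54278484), was detected at 10492 UMIs and did not follow the ligands. In chondrocyte-like cells it stood at 41.3 and 45.9 CPM in the mutant, against 38.3 and 62.9 CPM in WT. The log2 ratio was 0.11 (0.01 to 0.21) at day 13 and -0.45 (-0.57 to -0.34) at day 19, and the fitted difference of -0.35 ± 0.141 did not pass (SE; edgeR's quasi-likelihood test, Benjamini-Hochberg adjusted p = 0.11). In mutant cells its highest level among the skeletal clusters was in cluster 13, at 188 and 159 CPM, against 74.7 and 189 CPM in WT cells, where the Prg4 cluster 0 stood higher (87.9 and 207 CPM). Cluster 13 gave 36.5% and 25.1% of the Tnfrsf11b UMIs of the mutant libraries and 1.88% and 15.6% of those of the WT libraries, where cluster 3 gave 50.5% and 20.04%. Osteoblast-like cells held 72.7 and 46.9 CPM in the mutant, and fibroblast-like cells 14.6 and 39.5 CPM in the mutant and 18.6 and 47.7 CPM in WT. Erythroid-like cells held 0.993 to 3.04 CPM.

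The class value hid opposite differences between clusters. In cluster 0, the Prg4 cells of the articular surface type, Tnfrsf11b was 56.3 and 70.0 CPM in the mutant, against 87.9 and 207 CPM in WT. It fell there by 1.15 ± 0.173 on the log2 scale (SE; edgeR's quasi-likelihood test, Benjamini-Hochberg adjusted p = 8.24e-06). In the cycling cluster 1 it was 41.5 and 41.0 CPM in the mutant, against 19.9 and 24.8 CPM in WT, and rose by 0.72 ± 0.213 (adjusted p = 0.00535 in edgeR). In clusters 3, 12 and 13 it did not pass, with adjusted p-values of 0.184, 0.935 and 0.715. In cluster 3 the day 13 values were alike in the mutant and WT, 63.4 and 59.4 CPM, while at day 19 the mutant stood at 49.6 CPM and WT at 115 CPM. These fits were added after the values were seen, and the difference between clusters was not tested.

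Age moved none of the members past the threshold in chondrocyte-like cells, where edgeR called 0.663% of 15077 genes between days 19 and 13. In WT chondrocyte-like cells the log2 ratio of day 19 to day 13 for Tnfrsf11b was 0.72 (0.61 to 0.82), and in mutant cells it was 0.15. For Csf1 it was -0.37 in WT and -0.32 in the mutant. The make-up of the WT class also differed between days 13 and 19. Cluster 3 held 38.8% and 16.6% of it, and cluster 0 held 7.88% and 18.6%. In the mutant class cluster 3 held 8.69% and 7.49%, and cluster 0 held 10.3% and 10.8%. The part of this make-up in the ratios was not tested.

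The share of Tnfsf11 among the UMIs of Tnfsf11 and Tnfrsf11b together sets the ligand beside its decoy in the same cells. It counts transcripts and not protein, and the 2 genes differ in length and capture, so it was compared only between libraries. In chondrocyte-like cells it was 14.1% (12.5 to 15.9) and 13.0% (11.4 to 14.7) in the mutant, against 1.25% (0.833 to 1.80) and 1.21% (0.677 to 1.98) in WT. In fibroblast-like cells it was 55.8% (46.5 to 64.9) and 49.4% (41.2 to 57.5) in the mutant, against 22.1% (13.4 to 33.0) and 11.9% (4.91 to 22.9) in WT. The intervals of the genotypes did not overlap in either class. In the fibroblast-like class, 49 of the 76 mutant Tnfsf11 UMIs of day 19 came from 8 cells, which the intervals count as independent. Outside the sub-clusters led by Mmp9 and by Adipoq, that class held 3 and 4 Tnfsf11 and 36 and 76 Tnfrsf11b UMIs in the mutant. WT held 4 and 5 Tnfsf11 and 56 and 50 Tnfrsf11b UMIs there. Within cluster 14 the share was 35.1% and 36.3% in the mutant and 42.9% and 37.5% in WT, the WT values from 7 and 8 UMIs. Cluster 13, high in the decoy, had 0.9967% and 1.72% in the mutant and 0 in WT. The exact (Clopper-Pearson) method gave these intervals.

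**Figure D4:**
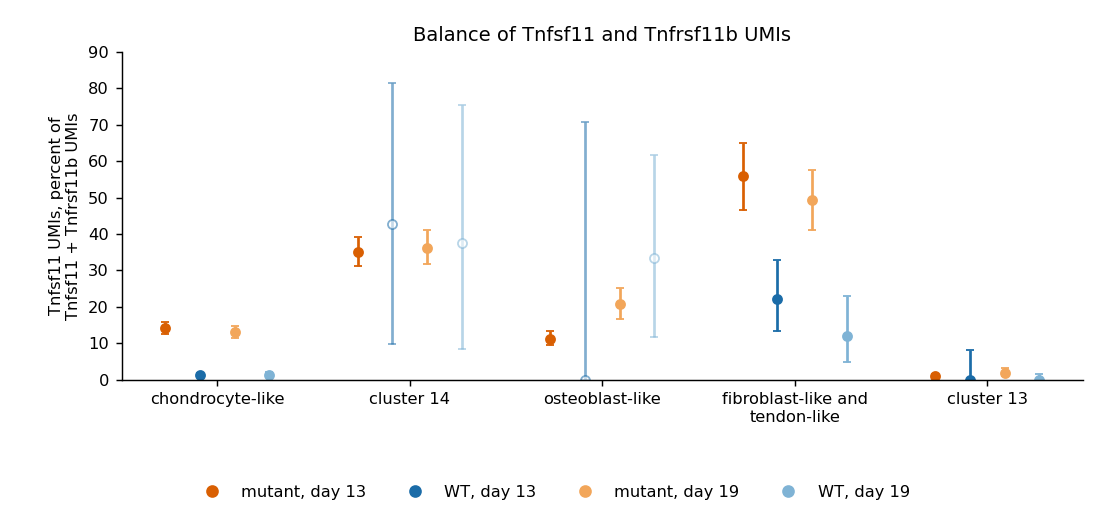
Percent of Tnfsf11 among Tnfsf11 and Tnfrsf11b UMIs by class and cluster, mutant before WT at each age, with exact 95% intervals; open points mark under 50 cells. Both mutant libraries lie above both WT libraries in chondrocyte-like cells (14.1% and 13.0% against 1.25% and 1.21%) and in fibroblast-like cells. In the fibroblast-like class, 49 of the 76 mutant Tnfsf11 UMIs of day 19 came from 8 cells.

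The receptors sat in other cells, and neither passed the test between genotypes there. Tnfrsf11a, for RANK (ENSMUSG00000026321, chromosome 1 at 105780718 to 105847981), gave 270 UMIs in all, of which the macrophage-like cluster 6 held 66.7% and 70.1% in the mutant libraries and 78.8% and 77.1% in the WT libraries. Macrophage-like cells stood at 59.4 and 48.3 CPM in the mutant (52 and 54 UMIs), against 53.0 and 44.2 CPM in WT (63 and 27 UMIs). The intervals of the 4 libraries overlapped, with a mean of 51.2 ± 6.51 CPM (SD, n = 4). Monocyte-like cells, the next in order, held 2.97 and 1.81 CPM in the mutant and 5.17 and 0.873 CPM in WT. Chondrocyte-like cells held 0.309 and 0.258 CPM in the mutant and 0.173 and 0.0513 CPM in WT, and erythroid-like cells held none. Thinned to 2000 UMIs, 8.16% and 5.50% of mutant macrophage-like cells held a Tnfrsf11a UMI, against 8.11% and 6.12% of WT ones.

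Csf1r (ENSMUSG00000024621), with 3635 UMIs, marked the same lineage more broadly. Macrophage-like cells stood at 748 and 503 CPM in the mutant, against 578 and 596 CPM in WT, with a mean of 606 ± 102 CPM (SD, n = 4). Monocyte-like cells followed at 146 and 166 CPM in the mutant and 258 and 127 CPM in WT, neutrophil-like cells at 28.9 and 20.1 CPM in the mutant and 46.6 and 12.4 CPM in WT. The gap from macrophage-like to monocyte-like cells exceeded the spread over libraries, and the order of plasmacytoid dendritic-like, neutrophil-like and myeloid progenitor-like cells below them did not. Chondrocyte-like cells held 0.666 to 1.19 CPM, near the 0 to 0.982 CPM of erythroid-like cells. Over monocyte-like and macrophage-like cells together, Tnfrsf11a differed by 0.03 (adjusted p = 0.992) and Csf1r by 0.01 (adjusted p = 0.997) on the log2 scale in edgeR's quasi-likelihood test, where 2.22% of genes were called. The single-age ratios of Csf1r in macrophage-like cells had opposite signs, 0.37 (0.21 to 0.53) at day 13 and -0.24 (-0.44 to -0.05) at day 19.

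Within the macrophage-like cluster the receptor levels differed between the 6 sub-clusters, made after the class values were seen. One sub-cluster of 69 cells, 11 and 20 from the mutant and 31 and 7 from WT, was led by Ctsk, Mmp9, Acp5 and Ocstamp, which encode the bone-resorbing protease cathepsin K, a collagen-cleaving protease, the acid phosphatase TRAP and a protein of osteoclast fusion. It carried 69.3 CPM of Tnfrsf11a (54.8 to 86.5) and 330 CPM of Csf1r (298 to 366). Osteoclast and chondrocyte markers were equal in number among its leading genes, 6 each, so it was given no name. Its 12 osteoclast markers summed to 11811 CPM, and Calcr, the calcitonin receptor of mature osteoclasts, was at 0. The sub-cluster led by Lyve1 and Cd163, genes of tissue-resident macrophages, carried 58.3 CPM of Tnfrsf11a and 1283 CPM of Csf1r (1187 to 1385), with the osteoclast markers at 186 CPM. Of these 2 sub-clusters, the one with more of the osteoclast genes had less Csf1r, while the intervals of Tnfrsf11a overlapped. The other sub-clusters did not follow one order. Tnfrsf11a was 32.7 CPM (22.5 to 45.9) in the 128 cells led by Cxcl9 and H2-Aa, 74.7 CPM (44.3 to 118) in the 29 cells led by Spp1 and Mmp12, and 52.9 CPM (36.8 to 73.5) in the 73 cells led by Cd209f and Marco. Csf1r was 691, 432 and 545 CPM in those 3 sub-clusters, with osteoclast markers at 498, 1772 and 557 CPM. Of these sums Acp5 gave 232, 1315 and 272 CPM. Ctsk gave 8.92, 24.9 and 4.53 CPM, against 3554 CPM in the Ctsk-led cells. The 18 cells led by haemoglobin genes held 309 CPM of Csf1r (243 to 388), as low as the Ctsk-led cells. Their osteoclast markers summed to 924 CPM, of which Car2 gave 660 CPM and Ctsk 4.12 CPM. Car2 stood at 4277 CPM in erythroid-like cells, so this sum was not a measure of osteoclast genes alone.

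**Figure D5:**
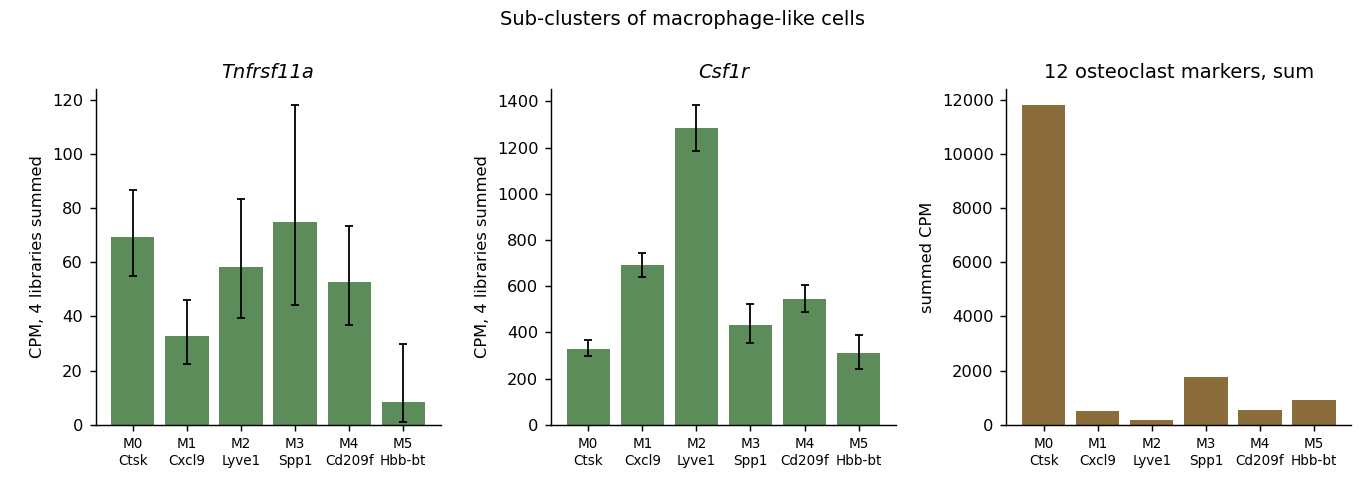
Level in CPM of Tnfrsf11a and Csf1r, with exact 95% counting intervals, and summed CPM of 12 osteoclast markers, in each sub-cluster of macrophage-like cells with the 4 libraries summed. Sub-cluster M0, led by Ctsk and Mmp9, has 330 CPM of Csf1r, against 1283 CPM in sub-cluster M2, led by Lyve1 and Cd163.

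The osteoclast genes in the macrophage-like class varied more between libraries than the receptors. Their sum was 1897 and 2142 CPM in the mutant and 7803 and 2579 CPM in WT, highest in the WT day 13 library. Ctsk over monocyte-like and macrophage-like cells was 134 and 118 CPM in the mutant, against 1927 and 273 CPM in WT. It fell by 2.53 ± 0.358 on the log2 scale (SE; edgeR's quasi-likelihood test, Benjamini-Hochberg adjusted p = 7.55e-05), the 1 gene called of 10 tested osteoclast effectors, where 2.22% of all genes were called. Without the age term no gene of the fit was called, with 480 genes at an unadjusted p below 0.05. Within the Ctsk-led sub-cluster Ctsk was 1232 and 1096 CPM in 11 and 20 mutant cells, against 5830 and 2825 CPM in 31 and 7 WT cells. That difference was not tested. Outside the Ctsk-led sub-cluster the macrophage-like level of Ctsk was 12.5 and 10.8 CPM in the mutant and 13.4 and 2.26 CPM in WT. Chondrocyte markers summed to 2416 and 1567 CPM in mutant macrophage-like cells and to 15524 and 9522 CPM in WT ones, and chondrocyte-like cells held Ctsk at 39.8 and 47.4 CPM in the mutant and 56.5 and 62.7 CPM in WT. The part of those markers in the result was not tested. Osteoclasts are multinucleated and large, and the share of them that entered droplets is not known from these files.

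Other genes of the pathway were counted in chondrocyte-like cells from 6 lists with 78 genes, in the fit that called 23.3% of all genes and 12.6% as higher in the mutant. Each count is also given without clusters 4 and 14, which were filled mostly by mutant cells; 13.6% of genes were called in the remaining cells. Among genes for cytokines and hormones that promote osteoclasts, 5 of 11 tested rose and none fell, with a median log2 difference of 0.84, against 0.01 over all genes tested. In the remaining cells 3 of 7 rose, with a median of 0.54. Ptgs2, which makes the prostaglandin precursor that raises RANKL in stromal cells, was 32.2 and 42.1 CPM in the mutant, against 7.16 and 9.12 CPM in WT, and rose by 2.001 ± 0.143 (adjusted p = 5.41e-05, edgeR). Cxcl12, a chemokine for haematopoietic and osteoclast precursors, was 13.2 and 15.4 CPM in the mutant, against 3.21 and 1.85 CPM in WT (log2 2.27, adjusted p = 0.000694, edgeR). Ccl2, a monocyte chemokine, rose by 2.49, and Osm, oncostatin M, by 1.60. Outside clusters 4 and 14, Ptgs2 and Cxcl12 were still called, Ccl2 was not (0.44, adjusted p = 0.511, edgeR) and Osm was filtered out.

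Of the receptors that act upstream of Tnfsf11, 6 of 10 tested rose and 2 fell, with a median log2 difference of 0.49. Without clusters 4 and 14, 1 of 10 rose and 1 fell, with a median of -0.02. That fit held 935 and 1068 mutant cells, against 2959 and 2911 in the whole class. The part of this smaller number in the lost calls was not tested. Vdr, the vitamin D receptor, was 7.31 and 8.07 CPM in the mutant, against 19.8 and 15.7 CPM in WT, and fell by 1.39 ± 0.187 (adjusted p = 0.00120, edgeR). Ptger4, a prostaglandin E2 receptor, rose by 1.498, Il1r1, the interleukin 1 receptor, by 1.03, and Il11ra1, the interleukin 11 receptor, by 0.77. In the cells outside clusters 4 and 14, Vdr and Il11ra1 were still called, while Ptger4 (1.17, adjusted p = 0.109, edgeR) and Il1r1 (-0.14, adjusted p = 0.764, edgeR) were not. Among the other secreted or surface modulators, 4 of 13 rose and 2 fell, with a median of 0.44, and without clusters 4 and 14, 2 of 12 rose and 2 fell, with a median of 0.29. Wnt4 was 28.0 and 25.6 CPM in the mutant, against 107 and 74.9 CPM in WT, and fell by 1.93 ± 0.155 (adjusted p = 8.53e-05, edgeR). Mmp14, a membrane protease that can cut RANKL from the cell surface, was 350 and 275 CPM in the mutant, against 73.4 and 98.2 CPM in WT, and rose by 1.69. Slit3 rose by 1.69, and Sfrp1, a Wnt antagonist, fell by 1.25. Wnt4 and Sfrp1 were still called without clusters 4 and 14, while Mmp14 (0.58, adjusted p = 0.0521, edgeR) and Slit3 (0.81, adjusted p = 0.179, edgeR) were not.

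RANK signalling genes rose in 3 of 15 cases and none fell, a share near the 23.3% of all genes called, with a median of 0.13. They were Nfkb1, an NF-κB subunit, by 1.24, with 119 and 144 CPM in the mutant and 43.3 and 55.5 CPM in WT, Relb by 0.84 and Nfkb2 by 0.67. Nfkb1 alone was called without clusters 4 and 14, where the median was 0.03. Among CSF1R and co-receptor genes 3 of 11 rose and none fell, a share near that of all genes, with a median of 0.47. Without clusters 4 and 14, 1 of 11 rose, with a median of 0.15. Il34, the second ligand of CSF1R, was 4.27 and 2.61 CPM in the mutant, against 1.21 and 0.974 CPM in WT, and rose by 1.46 (adjusted p = 0.00823, edgeR); it is the 1 gene of the list still called without clusters 4 and 14. Plcg2 rose by 1.59 and Trem2 by 3.06, the last at only 2.02 and 1.36 CPM in the mutant and 0.260 and 0.0513 CPM in WT; both are known from myeloid cells, whose markers were also higher in the mutant class, as given above, and their part was not tested. Of 8 osteoclast effectors tested here, Ctsk fell by 0.64 and none rose, with a median of 0.47, and without clusters 4 and 14 Ctsk was again the 1 gene called of 8, fell by 1.64, and the median was 0.29. In fibroblast-like cells none of the lists' genes was called, in a fit that called 1.08% of all genes.

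Genes with the most similar pattern over 12 named classes were found by Pearson's r of log2(CPM + 1) averaged over the libraries, among 8836 genes; the classes share libraries, and r is a description. For Tnfsf11 they were Ptprs (0.91), Ust (0.87) and Tmem218 (0.82). For Csf1 they were Enpp2 (0.95), Amotl2 (0.94) and Reck (0.94), and for Tnfrsf11b Ooep (0.98), Sema3d (0.97) and Ngef (0.96). For Tnfrsf11a they were Slc13a3 (0.98), Gbp8 (0.97) and Ocstamp (0.96), and for Csf1r Gpr65 (0.99), Trem2 (0.98) and Cx3cr1 (0.98).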

How the data were processed

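The deposited matrices hold unnormalized UMI counts, made by the authors with Cell Ranger on mm10, per the submitters' processing notes, which also name Seurat 3; the file headers give software version 3.1.0. Whether counting used strand is unknown here.

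Barcodes needed 500 genes and a mitochondrial share of up to 15%. Scrublet in scanpy 1.11.5 scored doublets; the automatic threshold marked 1 barcode in each WT library, so 1 score of 0.25, set after this was seen, removed 129 and 257 barcodes from the mutant libraries and 104 and 126 from the WT libraries at days 13 and 19. Clustering used 2000 variable genes without the 5 members, 30 principal components, 15 neighbours and Leiden resolution 1.0. Clusters were named when at least 3 markers of 1 type were among their 25 leading genes. Further naming rules were set after the clusters were seen, and the first took 50 leading genes for blood types. Clusters 1, 4, 12 and 14 were called chondrocyte-like because at least 10 chondrocyte markers were 3-fold over blood cells. A cluster led by osteoblast markers was left unnamed when at least 22 chondrocyte markers were 3-fold over blood cells, as in cluster 13.

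UMIs were summed per class and library. Where every library held 50 cells or more, the sums were fitted with edgeR 4.0.16 (R 4.3.3; quasi-likelihood test, TMM, filterByExpr, genotype plus age, Benjamini-Hochberg threshold 0.05 over all genes tested). Counts of 0 were given a floor of 3 UMIs. Shares of cells were thinned to 2000 UMIs. On simulated chondrocyte-like sums of 15017 genes with a dispersion of 0.01, the fit recovered 89.8% of 2-fold and 98.9% of 4-fold changes. On sums of 14975 genes with 0.05 it recovered 30.9% and 99%, and the estimate, 0.0187, lay between. False calls numbered 0 at 0.01 and 2 at 0.05. On simulated fibroblast-like sums the fit recovered 84.2% and 100% at 0.01, with 21 false calls. At 0.05 it recovered 23.9% and 97.8%, with 4 false calls. Changes were placed only in genes above a minimum expected count, and no age effect was simulated. Alternatives were RLE scaling, no filter, DESeq2 1.42.0, 1000 genes per barcode, 10% mitochondrial UMIs, doublets kept, no age term and other groupings of clusters.

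The members, lists and markers were chosen with earlier results of these data known. The text names the 5 members, up to 4 genes per list and comparison with the largest change among those past the threshold, and the 3 genes most like each member among those with 20 CPM or more in a class.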

Additional observations from a re-analysis of the deposited data

Results flagged for a closer look

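The single-age values of 4 comparisons had opposite directions at days 13 and 19, with counting intervals that left out 0 at both ages. Each age compares 1 mutant with 1 WT library, and the difference between the ages was not tested. For Csf1r in macrophage-like cells the log2 ratio of mutant to WT was 0.37 at day 13 and -0.24 at day 19. In monocyte-like cells it was -0.83 at day 13 and 0.38 at day 19. In neutrophil-like cells it was -0.69 at day 13 and 0.69 at day 19. For Tnfrsf11b in chondrocyte-like cells it was 0.11 at day 13 and -0.45 at day 19. Outside the Ctsk-led sub-cluster, macrophage-like Csf1r was 842 and 586 CPM in the mutant and 728 and 709 CPM in WT, so the direction at each age was the same there. The WT chondrocyte-like value of Tnfrsf11b at day 19 moved with that of cluster 0, at 207 CPM, and of cluster 3, at 115 CPM.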

How the results depend on the processing

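Chondrocyte-like Tnfsf11 and Csf1 kept their direction and their calls under RLE scaling, no filter, DESeq2, stricter barcode filters, doublets kept and no age term. Alone, cluster 0 gave Csf1 0.83 (adjusted p = 0.118) and cluster 12 gave 0.81 (adjusted p = 0.464), and day 13 gave a ratio of 2.82 with no test. Tnfrsf11b there was -0.35 and depended on the grouping of cells. It was 0.15 at Leiden resolution 0.5, 0.0556 without clusters 4 and 14, 0.10 with all skeletal cells and cluster 13, 0.11 at day 13 alone and 0.0687 in cluster 12. In cluster 0 it was -1.15 (adjusted p = 8.24e-06) and in cluster 1 it was 0.72 (adjusted p = 0.00535). Csf1r without clusters 4 and 14 was -0.33. Fibroblast-like Tnfsf11 lost its call with RLE (2.15, adjusted p = 0.0559), DESeq2 (2.22, adjusted p = 0.2499) and no age term (2.31, adjusted p = 0.153). Without its 2 sub-clusters the gene was filtered out and could not be fitted. Pre-B Tnfsf11 lost its call with DESeq2 (2.38), no age term (2.21, adjusted p = 0.161) and cluster 23 alone (2.03). With no age term the values over all cells lost their calls, Tnfsf11 at 2.67 (adjusted p = 0.260) and Csf1 at 2.05 (adjusted p = 0.341). Values near 0 changed sign: in monocyte-like and macrophage-like cells Tnfrsf11a was -0.00074 with 1000 genes per barcode and -0.0528 with no age term, and Csf1r -0.00019 with RLE. Csf1r over all cells was -0.0089 with RLE, -0.0084 with DESeq2 and -0.0323 with 1000 genes per barcode. The causes were not tested.

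The number of genes called for genotype in chondrocyte-like cells was 3507, against 2255 with DESeq2. For age it was 100, against 632 with no filter and 166 with doublets kept. In fibroblast-like cells it was 114, against 56 with RLE, 409 with no filter, 40 with DESeq2, 175 with 1000 genes per barcode, 220 with doublets kept and 22 with no age term. In monocyte-like and macrophage-like cells it was 200, against 52 with DESeq2 and 0 with no age term, where edgeR gave 480 genes an unadjusted p below 0.05. Over all cells it was 688, against 1556 with no filter and 0 with no age term, where edgeR gave 1399 genes an unadjusted p below 0.05 and DESeq2 with the age term called 825. In pre-B cells it was 246, against 50 with DESeq2 and 6 with no age term. Shares of cells were compared 120 times with the same share thinned to 1000 UMIs or left unthinned. In 69 of these comparisons the share left its counting interval, as fewer or more UMIs per cell must make it. The 12 balance values and the 24 age values stayed on their side. The osteoblast-like fits were not run, since the WT libraries held 22 and 17 such cells. Leaving out a replicate was not possible with 1 library per group. No paired analysis was possible because each group holds 1 library and the labels give no replicate numbers; the age term already sets mutant against WT within each age. Depth limits Tnfrsf11a, with 270 UMIs in all, and Tnfsf11, whose WT values rest on 28 and 15 UMIs in chondrocyte-like cells.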

Other observations

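Some values of the ligands lay in small groups of cells that no comparison of classes could hold, and all of them were picked after their values were seen. Csf1 stood at 148 CPM in a fibroblast-like sub-cluster of 171 cells led by Klk1b21, C3 and Ccl8, with 146 and 173 CPM in mutant cells and 149 and 126 CPM in WT cells, so the genotypes overlapped. Basophil-like cells of the unnamed cluster 19, led by Prss34 and Mcpt8, held 134 CPM of Csf1, with 143 and 99.7 CPM in the mutant and 219 and 141 CPM in WT. Neutrophil-like cluster 21, led by Il1b, held 53.8 and 15.4 CPM of Csf1 in the mutant and 52.7 and 19.3 CPM in WT. In these basophil-like and neutrophil-like cells the day 19 value was the lower one in both genotypes, each time from 1 library per age.

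Tnfsf11 was concentrated in single cells of some blood groups. T-like cells of cluster 19, led by Trac and Cd3e, held 0 and 1 Tnfsf11 UMIs in 5 and 29 mutant cells, and 12 and 1 in 16 and 22 WT cells, and the 12 UMIs of the WT day 13 library came from 2 cells. Plasmacytoid dendritic-like cells held 0 and 20.6 CPM in the mutant and 4.88 and 6.24 CPM in WT. The 14 Adipoq-led cells of the fibroblast-like class carried both ligands, with 336 CPM of Tnfsf11 and 256 CPM of Csf1, and of the 8 mutant cells of day 19, 7 held a Tnfsf11 UMI and 7 a Csf1 UMI. In the mutant day 19 library reticular stroma markers summed to 1388 CPM over the fibroblast-like class, against 265 CPM in the mutant library of day 13 and 534 and 381 CPM in the WT libraries.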
